A study of Mus musculus with 6 samples.

Results

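Integrins and other adhesion molecules hold blood progenitors in the bone marrow, and 36 genes of this kind were followed here in multipotent progenitors from mice with and without latexin (Lxn), an inhibitor of carboxypeptidases. The genes were taken by name from a list: 15 integrin alpha subunits, 8 integrin beta subunits and 13 other adhesion genes. All 36 were found, each on 1 feature of a whole-transcript mouse array, among 19938 named genes. The tested arrays were 3 labelled Lxn-/-, from mice with exons 2 to 4 of latexin deleted and no latexin protein. They were set against 3 WT arrays, from mice with an intact latexin gene and protein. Both groups were C57BL/6 mice labelled female and 8 to 12 weeks old, and the labels name no treatment beside the genotype. Each array held RNA of nearly 100000 bone marrow cells pooled from 10 to 20 mice. The sort gate took cells without lineage markers that carried c-Kit, Sca-1, CD34 and a receptor given as Flt2 in the series text. The labels and this gate name multipotent progenitors, whereas the series title and the text giving the cell number speak of long-term hematopoietic stem cells, so the population follows the labels here. Because each array is a pool, the values show pool averages, and the spread between single mice was not measured. Fewer cells of a type and less RNA per cell cannot be told apart in such samples.

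Integrins are cell surface receptors built of 1 alpha and 1 beta subunit. Each alpha subunit pairs with a small set of beta subunits, and the pair decides which matrix protein or which receptor on another cell is bound. Talin and kindlin bind the short tail of the beta subunit inside the cell and switch the receptor to its binding state. In bone marrow, the pair of alpha 4 and beta 1 binds VCAM-1 and fibronectin of the stroma, while the pair of alpha L and beta 2 binds the ICAM proteins. CD44 and PSGL-1 (encoded by Selplg) bind hyaluronan and the selectins.

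The values are log2 levels, and a log2 change is always the mean of the arrays labelled Lxn-/- minus the WT mean, with its standard error (SE) or 95% interval from limma. Levels of different features are not ordered, because probes differ in brightness. Of the 4 genes of the sort gate that were listed, Kit, Flt3 and Cd34 were measured here. Their levels were 11.48 to 13.48 in the arrays labelled Lxn-/- and 12.05 to 13.46 in WT, and the lowest was Kit in array 1 labelled Lxn-/-. The deleted gene did not check the labels. Lxn was 8.03 to 8.61 in the arrays labelled Lxn-/- against 8.56 to 8.70 in WT, and the exons covered by its probes are unknown here. Arrays 1 and 3 labelled Lxn-/- also carried Y-linked signal and low Xist, against their label. Eif2s3y was 8.57 and 9.36 there, against 3.83 in array 2 and at most 3.97 in WT. Changes without single arrays are given beside the results that those arrays move.

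No adhesion gene differed between the groups at an adjusted p of 0.05 in limma, and no feature on the array did. The smallest adjusted p was 0.34, for members and for all 23410 tested features alike. At an unadjusted p under 0.05, 5 of the 36 adhesion genes were called, 13.9%, which lay near the background of 14.3% of all tested features. Of these, Itgax was higher (background 5.06%) and Vcam1, Itga2b, Itga7 and Epcam were lower (background 9.23%) in the arrays labelled Lxn-/-. The number called was 3 without array 3 labelled Lxn-/- (background 6.95%), 3 without WT array 1 (background 11.7%), 1 without WT array 2 (background 8.13%) and 2 without WT array 3 (background 10.5%). Without array 1 labelled Lxn-/- it was 6 (background 23.7%), of which Itga7 and Itgax were among the 5 named and Itgae, Itgam, Itgb8 and Pecam1 were not. Without array 2 labelled Lxn-/- it was 5 (background 11.3%), with Itga2, Itga9 and Robo4 in place of Itga2b, Itga7 and Epcam. When the arrays were quantile-normalized again it was 5 against a lower background of 7.74%, with Itga9 and Robo4 in place of Itga7 and Epcam. The median size of the log2 change, without regard to sign, was 0.12 over the adhesion genes and 0.13 over all features. The groups did not overlap for 5 adhesion genes (13.9%), against a background of 21.6%. In 2 of these, Itgal and Itgax, the arrays labelled Lxn-/- were higher (background 8.54%), and in 3, Itga7, Itgae and Epcam, they were lower (background 13.0%).

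The data bounded most of these genes closely. For 29 of the 36, the 95% interval of the change lay inside 1.5-fold in both directions. That was 80.6%, a smaller share than the 89.9% of all features. These included all 8 beta subunits and 11 of the 15 alpha subunits. The genes whose interval reached past 1.5-fold were Itga1, Itga2, Itga2b, Itga9, Vcam1, Pecam1 and Robo4. The number inside 1.5-fold was 26 to 32 when any 1 array was left out. An exact permutation test of 3 arrays against 3 cannot go below p = 0.1, so the fit across all features carries these comparisons.

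**Figure D1:**
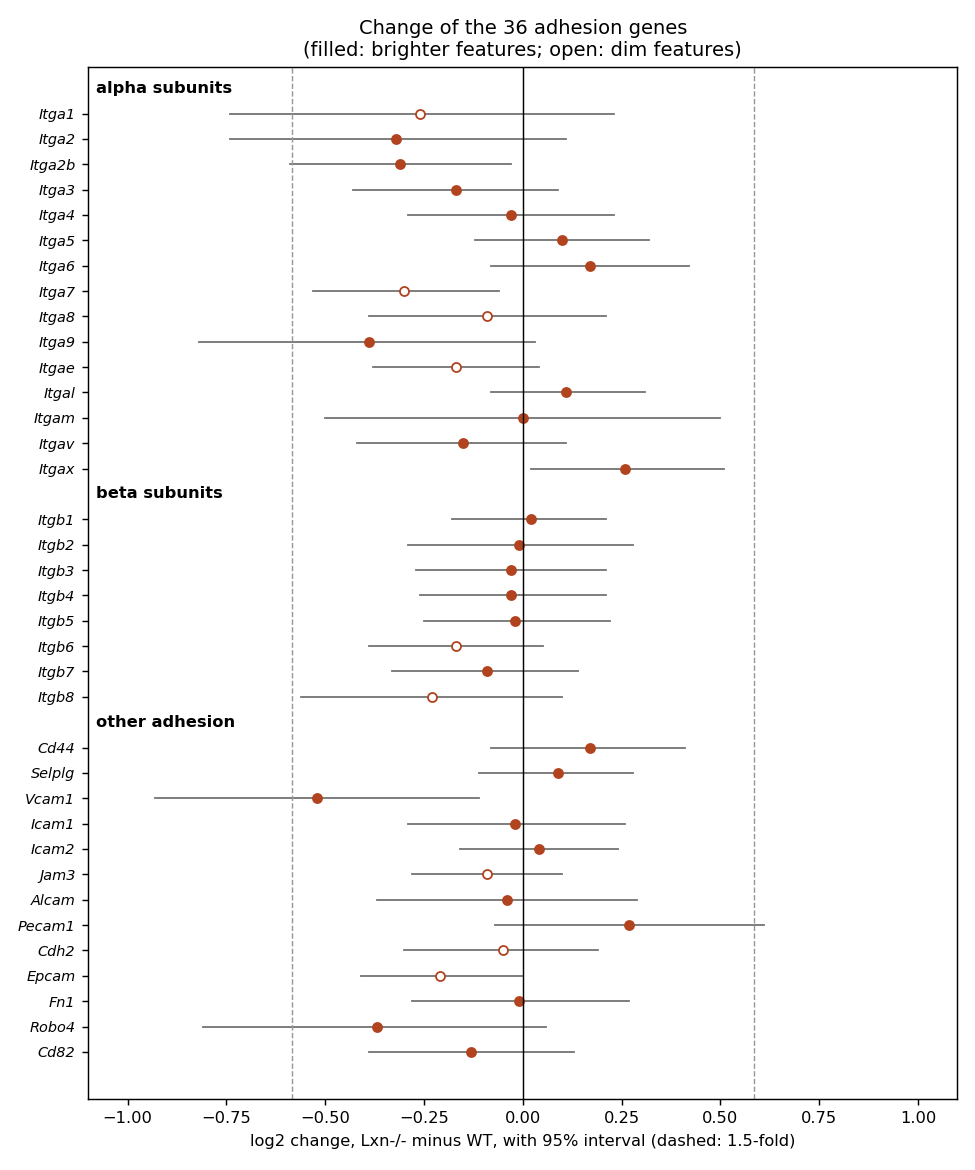
Log2 change (horizontal axis, arrays labelled Lxn-/- minus WT) of the 36 adhesion genes, one per row and grouped by role, with 95% intervals from limma. Filled points are brighter features, open points are dim ones, and dashed lines mark 1.5-fold. The 6 brighter beta subunits lie between -0.09 and 0.02, the dim Itgb6 and Itgb8 at -0.17 and -0.23, and Vcam1 at -0.52 is the farthest from 0.

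The genes of alpha 4 and beta 1, a pair that binds VCAM-1 and fibronectin, did not separate the groups. Itga4, which encodes alpha 4, was 11.49, 11.91 and 11.71 in arrays 1, 2 and 3 labelled Lxn-/- and 11.72, 11.77 and 11.71 in WT. The arrays labelled Lxn-/- spread on both sides of the WT arrays. The log2 change was -0.03 (95% interval -0.29 to 0.23). Itgb1, the common beta subunit of the matrix receptors, was 10.39, 10.49 and 10.52 in the arrays labelled Lxn-/- and 10.50, 10.44 and 10.41 in WT. These ranges overlapped almost fully, with a log2 change of 0.02 (95% interval -0.18 to 0.21). Fn1, fibronectin itself, had a log2 change of -0.01 (95% interval -0.28 to 0.27).

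The other alpha partners of beta 1 did not move as a block. Itga6, the laminin receptor subunit that marks many stem cells, was 9.66, 9.76 and 9.85 in the arrays labelled Lxn-/- and 9.76, 9.41 and 9.60 in WT. Its groups overlapped, at a log2 change of 0.17 (95% interval -0.08 to 0.42) that was 0.08 without WT array 2. Itga5, the fibronectin receptor subunit, had a log2 change of 0.10 (SE 0.10), which was 0.01 without WT array 3 and 0.15 without WT array 2. Itga2, a collagen receptor subunit, had a mean of 8.13 ± 0.37 in the arrays labelled Lxn-/- and 8.45 ± 0.24 in WT (SD, n = 3 each), with an adjusted p of 0.415 in limma. The log2 change of -0.32 was -0.14 without array 1 labelled Lxn-/-, -0.51 without array 2 and -0.18 without WT array 2. Itga9, which binds VCAM-1 and osteopontin among others, had a mean of 8.26 ± 0.40 in the arrays labelled Lxn-/- and 8.66 ± 0.19 in WT (SD, n = 3 each). The log2 change was -0.39 (SE 0.19, adjusted p 0.361 in limma). It was -0.17 without array 1 labelled Lxn-/-, -0.54 without array 3 and -0.30 without WT array 2. Itgav, the alpha subunit that pairs with several beta subunits to bind vitronectin, had a log2 change of -0.15 (SE 0.12), and Itga3, of a laminin receptor, one of -0.17 (SE 0.11). Without WT array 2 these were -0.04 and -0.05, and Itgav was -0.08 without array 1 labelled Lxn-/-.

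The leukocyte integrins share the beta 2 subunit and bind ICAM proteins, complement fragments and fibrinogen. Itgal, the alpha subunit of LFA-1, was 10.79, 10.86 and 10.73 in the arrays labelled Lxn-/- and 10.73, 10.72 and 10.61 in WT. The groups nearly touched without overlapping, and the log2 change of 0.11 (95% interval -0.08 to 0.31) had an unadjusted p of 0.227 and was 0.07 without WT array 3. Itgb2 itself was 9.46, 9.68 and 9.61 in the arrays labelled Lxn-/- and 9.48, 9.85 and 9.44 in WT, with a log2 change of -0.01 (95% interval -0.29 to 0.28). The ligands did not separate the groups either, with log2 changes of -0.02 (SE 0.12) for Icam1 and 0.04 (SE 0.09) for Icam2.

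Itgam, the alpha subunit of Mac-1 (CD11b) on myeloid cells, was the most uneven adhesion gene within a group. Arrays 1, 2 and 3 labelled Lxn-/- gave 9.17, 10.19 and 9.89, against 9.75, 9.70 and 9.80 in WT. The array labelled Lxn-/- with the lowest value and the one with the highest lay on opposite sides of all WT arrays, so the means were equal at 9.75, with an SD of 0.53 against 0.05 in WT (n = 3 each). Without array 1 labelled Lxn-/- the log2 change was 0.29 (adjusted p 0.177 in limma), and without array 2 it was -0.22 (adjusted p 0.608).

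Itgax encodes CD11c, an alpha subunit on dendritic cells and macrophages. Its level was 7.82, 7.85 and 8.13 in the arrays labelled Lxn-/- and 7.73, 7.73 and 7.56 in WT. All 3 arrays labelled Lxn-/- lay above all WT arrays, and array 3 was the highest. The log2 change of 0.26 (SE 0.11) was a 1.20-fold higher mean with an unadjusted p of 0.0395 and an adjusted p of 0.342 in limma. It was 0.17 without array 3 and 0.32 without array 1. Macrophage markers did not move one way beside it. Of 10 markers, Csf1r and Cd68 were higher at an unadjusted p under 0.05 (background 5.06%). The 4 lower ones were C1qa, C1qb, Mrc1 and Siglec1 (background 9.23%), and 4 of the 10 were dim. Lower means were found in 8 of the 10, against 57.8% of all features. The median log2 change of the list was -0.25. The mean log2 level of the list was 7.34 to 7.48 in the arrays labelled Lxn-/- and 7.45 to 7.66 in WT, and its part in the Itgax result was not tested. Of 10 neutrophil markers, 1, Cxcr2, was higher at an unadjusted p under 0.05 (10.0%, background 5.06%). Of all features above the dim range, 39.2% had lower means, with a median log2 change of 0.04. None of the 10 neutrophil markers was dim, and 8 had higher means, at a median of 0.19. Their mean log2 level was 10.03 to 10.51 in the arrays labelled Lxn-/- and 9.92 to 10.51 in WT, and their part was not tested either.

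Itga2b, which encodes the platelet and early progenitor antigen CD41, was 8.09, 8.27 and 8.44 in the arrays labelled Lxn-/- and 8.53, 8.76 and 8.44 in WT. The groups met at 8.44, with the other WT arrays above and the other arrays labelled Lxn-/- below. The log2 change was -0.31 (SE 0.12), a 1.24-fold lower mean, with an unadjusted p of 0.0345 and an adjusted p of 0.34 in limma. It was -0.21 without WT array 2 and -0.22 without array 1 labelled Lxn-/-. Its only beta partner, Itgb3, had a log2 change of -0.03 (95% interval -0.27 to 0.21). Megakaryocyte markers ran the same way as Itga2b: all 7 measured of 11 had lower means, as did 57.8% of all features. Of the 7 markers, 2 were lower at an unadjusted p under 0.05 (28.6%, background 9.23%), and 1 was dim. Their mean log2 level was 7.25 to 7.36 in the arrays labelled Lxn-/- and 7.44 to 7.73 in WT, and their part in the Itga2b result was not tested.

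The promoters of Itga2b and Itgax are shown because these are the integrin genes above the dim range that reached an unadjusted p under 0.05, one on each side of 0. The sequences are from RefSeq (GRCm38.p6), in a table used here that matched 22 of the 36 genes, and run from 250 bases before the gene start to 50 after it, 5′ to 3′ on the gene's strand. Capitals mark the words searched on both strands: AGATAA or TGATAA, which GATA factors can bind, and GAGGAA, the core bound by PU.1. The matches did not overlap.
Itga2b, chr11:102469834-102470133, minus strand: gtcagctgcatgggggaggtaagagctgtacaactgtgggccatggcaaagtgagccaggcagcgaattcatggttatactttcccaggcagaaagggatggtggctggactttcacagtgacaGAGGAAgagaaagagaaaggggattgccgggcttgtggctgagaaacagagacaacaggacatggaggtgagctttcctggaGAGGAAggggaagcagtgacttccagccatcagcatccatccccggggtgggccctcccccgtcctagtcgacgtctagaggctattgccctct
Itgax, chr7:128129300-128129599, plus strand: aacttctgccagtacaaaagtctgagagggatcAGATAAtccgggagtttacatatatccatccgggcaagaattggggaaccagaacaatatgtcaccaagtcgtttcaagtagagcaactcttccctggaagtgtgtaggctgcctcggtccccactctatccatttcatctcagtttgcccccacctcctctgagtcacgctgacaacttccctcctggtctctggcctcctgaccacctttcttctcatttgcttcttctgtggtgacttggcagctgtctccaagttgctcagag
The Itga2b window held the PU.1 word 2 times and no GATA word, and the Itgax window held 1 GATA word and no PU.1 word. Of 32851 promoters of this length, 18.6% held a GATA word and 28.3% the PU.1 word. No binding was measured in these cells, and a match is only a match of letters.

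The groups overlapped for the remaining beta subunits. Itgb5, of a vitronectin receptor, had a log2 change of -0.02 (SE 0.10), Itgb4, the partner of alpha 6 in epithelia, one of -0.03 (SE 0.10), and Itgb7, the partner of alpha 4 in gut homing, one of -0.09 (SE 0.10). Itgb6 and Itgb8, whose receptors release active TGF-beta, had log2 changes of -0.17 (SE 0.10) and -0.23 (SE 0.14). Without array 1 labelled Lxn-/- Itgb8 was at -0.38, and without array 2 or without WT array 1 it was at -0.14. Itgb6 was at -0.11 without WT array 1. All 8 beta subunits together had a median log2 change of -0.03, between -0.23 and 0.02, and 7 of 8 had lower means. The 15 alpha subunits had a median of -0.15, between -0.39 and 0.26, and 11 of 15 had lower means. The median over all features was -0.04, and 57.8% of them had lower means. The alpha median was -0.08 without array 1 labelled Lxn-/-, -0.05 without WT array 2, and 0.04 without arrays 1 and 3 labelled Lxn-/-, which leaves 1 array in that group.

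Some integrin genes were dim on these arrays. Olfactory receptor features, 1035 in number and taken as genes without a known role in these cells, had a 95th percentile of 7.20, and a gene was called dim where both group means were at or under it. By this rule 9 of 36 adhesion genes were dim: Itga1, Itga7, Itga8, Itgae, Itgb6, Itgb8, Jam3, Cdh2 and Epcam. Itga7, a laminin receptor subunit of muscle, was 6.84, 6.58 and 6.64 in the arrays labelled Lxn-/- and 6.86, 7.09 and 7.00 in WT. The groups did not overlap, by a gap smaller than the spread within either, and the log2 change was -0.30 (SE 0.10, adjusted p 0.34 in limma). Epcam, an adhesion molecule of epithelia, was 6.34, 6.39 and 6.35 in the arrays labelled Lxn-/- and 6.44, 6.66 and 6.61 in WT. Its groups did not overlap either, at a log2 change of -0.21 (SE 0.09, adjusted p 0.346).

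The direction seen in the dim genes was that of dim features at large. All 9 dim adhesion genes had lower means, with a median log2 change of -0.17. Among all dim features 87.3% had lower means, with a median of -0.13, while features above the dim range had a median of 0.04. When the arrays were quantile-normalized again both medians were -0.01, and the changes of Itga7 and Epcam were -0.17 and -0.08. Of the 27 adhesion genes above the dim range, 9 had higher and 18 had lower means (66.7%), with a median of -0.02, where 39.2% of all features above that range had lower means. Under the new quantile normalization 8 adhesion genes turned sign, Itgb1 among them. The split was then 11 higher and 25 lower, where it had been 9 higher and 27 lower. Centring arrays on their medians shifts all genes alike, with an all-feature median of 0.02 in place of -0.04. With that shift 10 adhesion genes turned sign, Itga4 and Itgb2 among them. Of the 36, 19 then had higher and 17 lower means, in place of 9 higher and 27 lower. The count of lower means thus dropped under centring and changed little under the new quantile normalization.

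**Figure D2:**
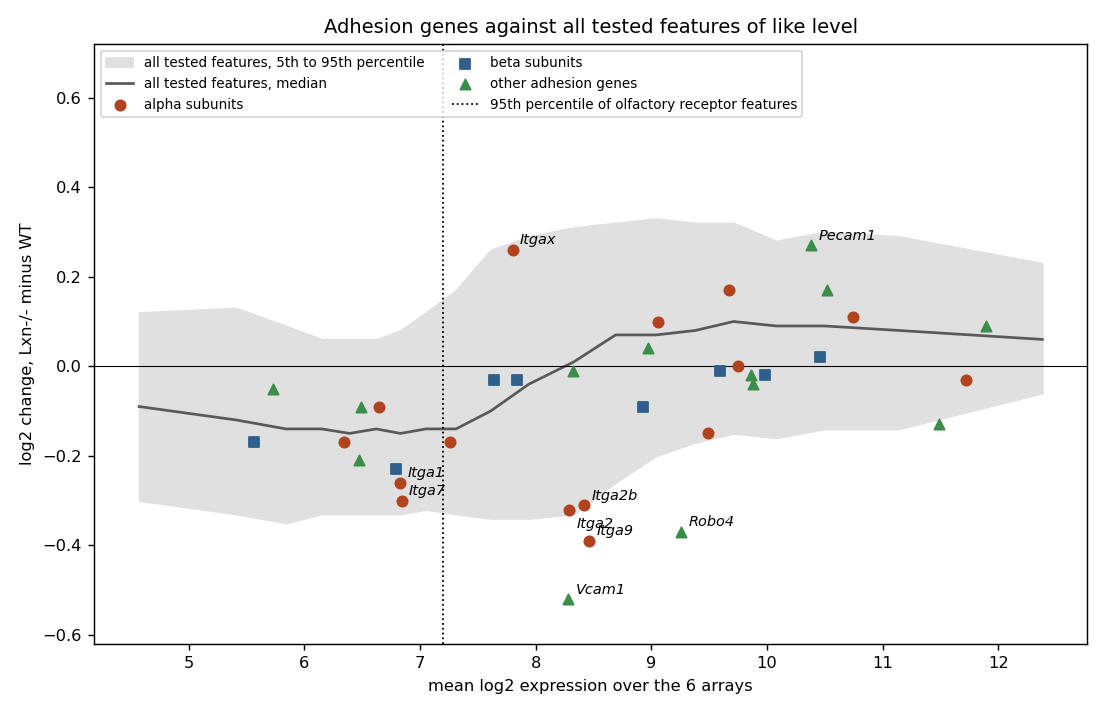
Log2 change (vertical axis) against mean log2 level over the 6 arrays (horizontal axis) for the 36 adhesion genes. The grey band holds the 5th to 95th percentile and the dark line the median of all tested features in 20 level bins, and the dotted line is the 95th percentile of olfactory receptor features. Most adhesion genes lie inside the band, and Vcam1, Robo4 and Itga9 lie farthest below it.

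Vcam1 had the largest change of the 36. VCAM-1 is the stromal and macrophage ligand of alpha 4 and beta 1, and blood progenitors can carry it too. Its level read 7.70, 8.30 and 8.07 in arrays 1, 2 and 3 with the Lxn-/- label and 8.30, 8.87 and 8.47 in WT. The groups met at 8.30, with array 1 labelled Lxn-/- lowest and WT array 2 highest. The log2 change was -0.52 (95% interval -0.93 to -0.11), a 1.43-fold lower mean, with an unadjusted p of 0.0181 and an adjusted p of 0.34 in limma. It was -0.36 without array 1 labelled Lxn-/-, -0.66 without array 2, -0.36 without WT array 2 and -0.25 without arrays 1 and 3 labelled Lxn-/-. Over the alternatives its adjusted p ran between 0.2 and 0.644.

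Markers of endothelium and stroma, which carry VCAM-1, had lower means on balance. Of 12 endothelial and stromal markers, 10 had lower means (83.3%), as did 57.8% of all features and 87.3% of the dim ones. At an unadjusted p under 0.05, 2 of the 12 were lower (16.7%, background 9.23%). Of the 12, 7 were dim, Cdh5 and Kdr among them, with log2 changes of 0.00 and -0.01. The 5 above the dim range were Tek at -0.41, Tie1 at -0.35, Emcn at -0.24, Col3a1 at -0.09 and Pdgfrb at 0.12. Without array 1 labelled Lxn-/-, Tek, Tie1 and Emcn were at -0.15, -0.12 and -0.05. Over all 12, the mean log2 level was 7.18 to 7.24 in the arrays labelled Lxn-/- and 7.32 to 7.41 in WT. The erythroid markers (6 measured of 10) also all had lower means, with a mean log2 level of 7.49 to 7.61 in the arrays labelled Lxn-/- and 7.70 to 8.25 in WT. The part of these cells, or of the macrophages given above, in the Vcam1 result was not tested.

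The receptors for selectins and hyaluronan did not separate the groups. Selplg was 11.88, 12.00 and 11.93 in the arrays labelled Lxn-/- and 11.86, 11.90 and 11.78 in WT, overlapping ranges with a log2 change of 0.09 (95% interval -0.11 to 0.28). Cd44 was 10.55, 10.49 and 10.78 in the arrays labelled Lxn-/- and 10.56, 10.42 and 10.34 in WT, where array 3 labelled Lxn-/- alone lay above all WT arrays. Its log2 change was 0.17 (95% interval -0.08 to 0.41), and 0.08 without array 3. Cd82, a tetraspanin tied to stem cell quiescence in mice, was 11.37, 11.37 and 11.55 in the arrays labelled Lxn-/- and 11.38, 11.75 and 11.54 in WT. These ranges overlapped, with a log2 change of -0.13 (95% interval -0.39 to 0.13) that was -0.03 without WT array 2 and -0.21 without WT array 1.

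Junction and niche contact genes were mixed. Pecam1, the adhesion molecule CD31 of endothelium and blood cells, had a mean of 10.52 ± 0.27 in the arrays labelled Lxn-/- and 10.24 ± 0.18 in WT (SD, n = 3 each), with an adjusted p of 0.398 in limma. The log2 change of 0.27 was 0.14 without array 3 labelled Lxn-/-, 0.17 without WT array 2 and 0.42 without array 1 labelled Lxn-/-. Robo4, a receptor of endothelium and stem cells that takes part in homing to marrow in mice, had a mean of 9.08 ± 0.40 in the arrays labelled Lxn-/- and 9.45 ± 0.21 in WT (SD, n = 3 each), with an adjusted p of 0.379. Its log2 change of -0.37 was -0.14 without array 1 labelled Lxn-/-, -0.52 without array 2 and -0.27 without WT array 2. Alcam (CD166) had a log2 change of -0.04 (SE 0.15) and the dim genes Jam3 and Cdh2 (N-cadherin) ones of -0.09 (SE 0.09) and -0.05 (SE 0.11). The 13 other adhesion genes had a median of -0.04, and 9 of 13 had lower means.

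**Figure D3:**
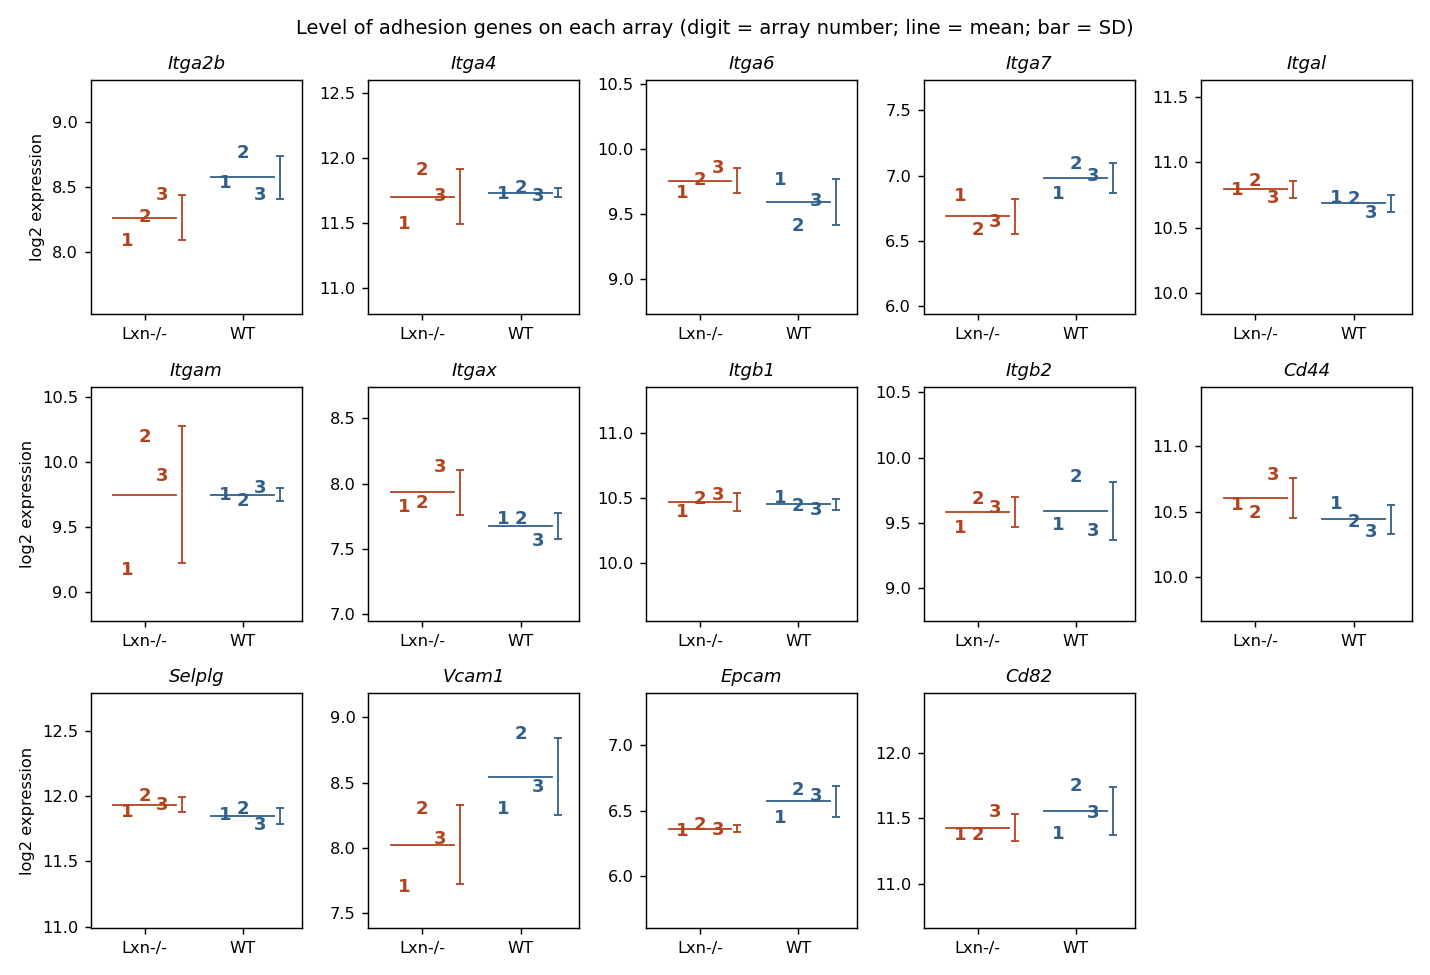
Log2 level (vertical axis, 1.8 units high in every panel) of 14 adhesion genes on each array, with arrays labelled Lxn-/- left and WT right. Digits are array numbers, lines are means and bars are SD (n = 3 each). Itgam spreads widely in the arrays labelled Lxn-/-, and the groups of Vcam1 meet at 8.30.

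Array 1 labelled Lxn-/- gave the low end of many adhesion genes. It held the lowest of the 6 values for 15 of the 36 genes (41.7%), where it held the lowest for 17.9% of all features. In it, 6 genes lay 0.5 or more below the WT mean on the log2 scale (16.7% of the 36, against 2.34% of all features), and no adhesion gene did so in any other array. These were Itga9 at -0.85, Vcam1 at -0.84, Robo4 at -0.83, Itga1 at -0.82, Itga2 at -0.68 and Itgam at -0.58, a set picked out after its values were seen. WT array 2 held the highest value for 16 of the 36 (44.4%), against 30.2% of all features. Mast cell and basophil markers were also lowest in array 1, at a mean log2 level of 7.68 against 8.24 and 8.37 in arrays 2 and 3 labelled Lxn-/- and 8.40 to 8.61 in WT. The measured sort gate markers averaged 12.42 there and 12.74 to 12.82 on the other 5 arrays. The part of either in the adhesion values was not tested.

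**Figure D4:**
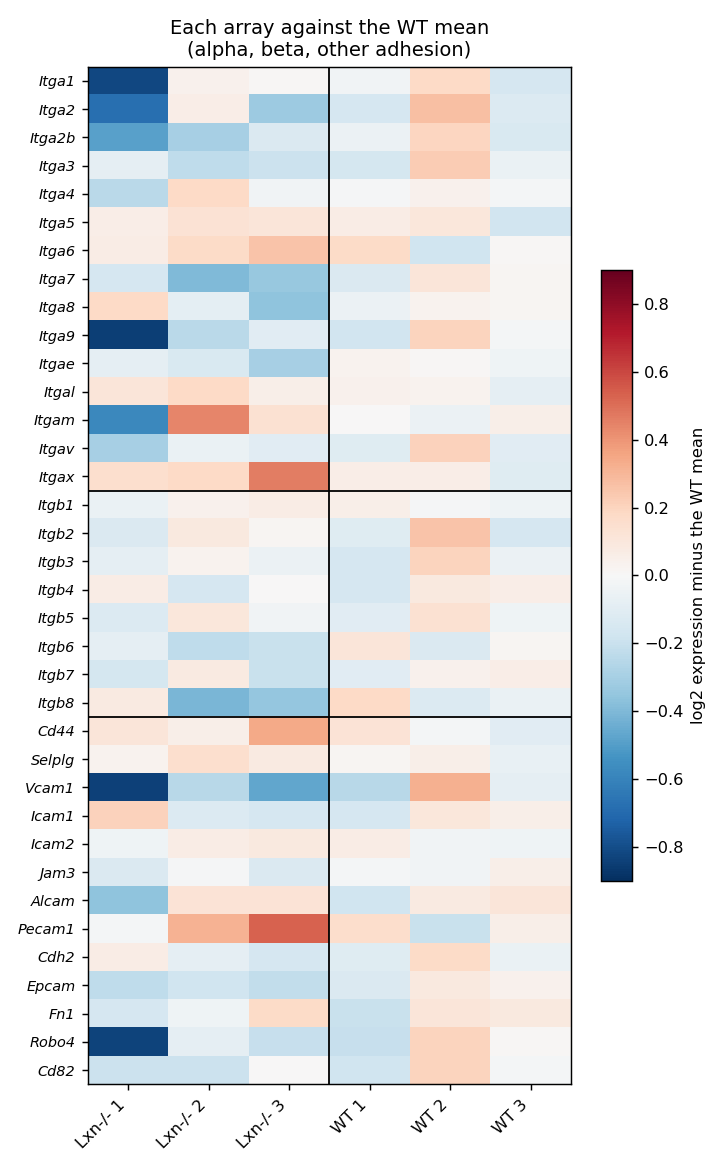
Log2 level of each adhesion gene (rows) on each array (columns, arrays labelled Lxn-/- left, WT right) minus the WT mean of that gene, in colour from blue (lower) to red (higher). Black lines part alpha subunits, beta subunits and other adhesion genes. The 6 darkest blue cells, from -0.58 to -0.85, are all in array 1 labelled Lxn-/-.

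The genes that switch integrins on and link them to the cell skeleton had small changes in both directions. Of 38 listed activators and adaptors, 37 were measured, 17 with higher and 20 with lower means, at a median log2 change of -0.01. Only 1 had an unadjusted p under 0.05 (2.7%, against the background of 14.3%), the dim LIM-domain adaptor gene Lims2 at -0.30 (SE 0.10, adjusted p 0.34 in limma). All 37 intervals lay inside 1.5-fold. The talin gene Tln1 had a log2 change of -0.14 (SE 0.09) and the blood cell kindlin gene Fermt3 one of -0.07 (SE 0.10).

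Matrix and counter-receptor genes had lower means in 26 of 28 measured genes of 31 listed, and 15 of the 28 were dim. Among dim features at large 87.3% had lower means, with a median log2 change of -0.13. Of features above the dim range 39.2% had lower means, with a median of 0.04. The median was -0.17 over the 28 matrix genes, of which 13 were not dim. Over the 7 above the median level of all tested features it was -0.12. Over all 28 the median was -0.05 when the arrays were quantile-normalized again and -0.11 without WT array 2. At an unadjusted p under 0.05, 8 were lower (28.6%, against a background of 9.23% for lower features) and none was higher, and none passed the adjusted threshold. The collagen gene Col1a2 had the smallest p of these, at a log2 change of -0.33 (SE 0.10). The dim laminin genes Lama1 and Lama2 were at -0.24 (SE 0.09) and -0.25 (SE 0.10), and the dim fibrinogen genes Fgb and Fgg at -0.24 (SE 0.09) and -0.25 (SE 0.10). Among all 9049 dim features, 1367 were lower at an unadjusted p under 0.05. Thbs1, which encodes the matrix protein thrombospondin 1, had a log2 change of -1.78 (SE 0.68, adjusted p 0.34 in limma) and was 8.20 and 8.69 in arrays 1 and 3 labelled Lxn-/-, against 11.34 in array 2 and 10.70 to 11.47 in WT. Its low values were thus in the arrays with Y-linked signal. Without array 2 labelled Lxn-/- Thbs1 passed, at a log2 change of -2.74 (adjusted p 3.86e-05 in limma). In that comparison 145 features passed the adjusted threshold (0.619% of those tested), and none of the 36 adhesion genes was among them.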

How the data were processed

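The deposited table holds log2 expression of 35557 features on 6 arrays, which the authors normalized by RMA, per the series text. Per the labels' protocols, 100 ng of RNA was labelled for Affymetrix MoGene 1.0 ST arrays. The submitters' processing notes name Partek 6.0. The log2 scale was read from the values, 2.93 to 14.78 over the tested features. RMA removes differences in total RNA per cell. RMA settings, scan dates and the build are not stated.

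Features were named through the platform's gene table, with symbols updated from the GRCm38.p6 gene table (21698 of 21789 single-gene features matched). The 23410 features with a symbol were tested, including 1621 with several symbols. Of several features of a gene the one with the highest mean stands for it. The test was limma 3.58.1 (R 4.3.3), two-sided, and p-values were adjusted over all 23410 features by Benjamini-Hochberg. No 2 arrays shared more than 18 identical values. The script was tested on simulated data. Genes got every-array values at an unadjusted p under 0.05, at a log2 change of 0.4, at 0.2 without overlap of groups, on passing when 1 array was left out, or as textbook progenitor adhesion molecules. The other named members follow by role. Of the activators and of the matrix genes, up to 6 at an unadjusted p under 0.05 are named by smallest p. Tln1 and Fermt3 were added for their role after their values were seen. The members and lists were chosen with earlier results of these data known. Alternatives were the replicate block, arrays left out, 2 other scalings, a level filter, other eBayes settings, array weights, all rows tested and the mean of a gene's features.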

Additional observations from a re-analysis of the deposited data

How the results depend on the processing

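None of the 36 adhesion genes passed an adjusted p of 0.05 in any alternative, and the changes of Vcam1, Itga2b, Itgax, Itga7 and Epcam kept their sign in each alternative that could be run. The level filter dropped 11 of the 36, Itga7 and Epcam among them. Over all features the number passing was 0 to 145 when 1 array was left out and 3 without arrays 1 and 3 labelled Lxn-/-. Adhesion genes at an unadjusted p under 0.05 numbered 1 to 6 when 1 array was left out (6.95% to 23.7% of all features). They numbered 7 with array weights (24.0%), 2 with all rows tested (11.4%), and 3 with arrays centred on the median (13.4%) or with the level filter (11.6%). With new quantile normalization 5 of the 36 were called, against a lower background of 7.74%. These were Itga2b, Itga9, Itgax, Vcam1 and Robo4. The alpha subunit median of -0.15 was -0.05 with array weights, -0.09 with centring, -0.08 with new quantile normalization, -0.02 with the level filter (10 genes left), 0.04 without arrays 1 and 3 labelled Lxn-/-, and -0.19 to -0.05 with 1 array left out. With 1 array left out, the median was -0.10 to 0.01 for beta subunits, -0.02 to 0.04 for activators and adaptors and -0.23 to -0.11 for matrix genes. Activators and adaptors were at 0.05 with centring and 0.04 without arrays 1 and 3 labelled Lxn-/-, and matrix genes were at -0.05 with new quantile normalization.

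Changes near 0 turned sign. Itga4 was 0.05 with array weights, 0.03 with centring, 0.18 without arrays 1 and 3 labelled Lxn-/-, and -0.14 to 0.08 with 1 array left out. Itgb2 was 0.10, 0.05 and 0.09 in the same 3 alternatives and -0.08 to 0.12 with 1 array left out. With new quantile normalization, Itgb1 was -0.07 and Selplg -0.01, and Itgb1 was -0.01 to 0.06 with 1 array left out. Of all features at an unadjusted p under 0.05, 35.4% were higher in the arrays labelled Lxn-/-, against 47.6% with new quantile normalization and 70.0% with centring. The cause was not tested.

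Same-numbered arrays deviated from their group means with correlations of 0.08, -0.01 and -0.01, and arrays 2 and 3 labelled Lxn-/- correlated best with another number, so the numbers were not taken as pairs. With the replicate block, 1 feature passed, which was not an adhesion gene, and 6 adhesion genes had an unadjusted p under 0.05, as did 14.2% of all features. The number of arrays limits the precision of every value.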
